A study of Mus musculus with 36 samples.

Results

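Replication timing (RT) states were read at the start of 9 mouse genes, chosen from a list of mesenchymal regulators and growth factor receptors, among 22350 protein-coding genes annotated on the autosomes and X. The choice was made with earlier results of these data known, so counts set beside the shares of all genes are a description only. The list held the transcription factor genes *Twist1*, *Twist2*, *Prrx1*, *Snai2*, *Osr1*, *Tbx5* and *Tbx15* and the receptor genes *Pdgfra* and *Pdgfrb*. Each of the 9 names matched 1 protein-coding gene of the GENCODE M1 annotation of mm9, and each gene start lay inside a domain in all 3 maps used.

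The assay was Repli-seq: newly made DNA takes up BrdU, cells are sorted by DNA content into an early and a late fraction of S phase, and the BrdU-labelled DNA of each is sequenced. The series held 36 libraries in 7 groups, all from B cells, of which 8 libraries underlie the B cell maps used here. CH12 shLacZ was the CH12 mouse B cell lymphoma line, infected with a lentivirus carrying a control short hairpin RNA against LacZ and selected with puromycin (4 libraries). Primary B WT was activated splenic B cells of mice with intact *Rif1* (4 libraries). The further map, named for wild-type mouse embryonic fibroblasts (MEF), is tied by the labels to no sample of the series, and the study lists its fibroblast Repli-seq as an earlier deposit, so a difference from it can come from the cell type or from the experiment, which cannot be told apart. The remaining 28 libraries, with *Mcm6* depletion or *Rif1* deletion, were not used here.

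Domains in each map are runs of 20 kb bins with the same state, which is early (E), middle (M) or late (L). States were called on pooled replicates, so each condition has 1 map, and neither a replicate error nor a test between maps could be given for any value. The methods call the samples sorted from each fraction technical replicates, and also state that sequencing replicates of CH12 came from separately thawed vials, so which kind the deposited replicates are is not settled. Read depth is unknown from the maps, and the RT values that separate E, M and L can differ between them, so an earlier state in one map is a difference in class and not a measured shift in RT. Marker lists separated the MEF map from the B cell maps by matrix genes more than by B cell genes. Of 15 fibroblast matrix genes, 13 started in E in the MEF map (58.6% of all protein-coding genes), 3 in CH12 (50.6%) and 5 in primary B cells (58.0%). All 12 B cell identity genes started in E in primary B cells, with 9 in CH12 and 8 in the MEF map. This list hardly separated CH12 from the MEF map, where its E share was near that of all genes.

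In mammalian cells, gene-rich and transcribed chromatin tends to replicate early in S phase and silent chromatin late, and regions that hold developmental genes often switch timing between lineages. The genes described here act in mesenchyme, the loose embryonic tissue that gives rise to connective tissue, bone and muscle coats. Twist, Snail and Prrx factors are known for promoting mesenchymal character, T-box and Osr factors for patterning limbs, heart and kidney, and PDGF receptors for transmitting growth signals to fibroblasts and pericytes. None of them is known as a gene of B cell identity.

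In CH12 cells most of the 9 genes started in late domains, and in the MEF map none did. *Twist1*, *Prrx1*, *Snai2*, *Tbx15*, *Tbx5* and *Osr1* were L in CH12, 6 of 9 genes, where 22.1% of all protein-coding gene starts were L. *Twist2* and *Pdgfra* were M (27.2% of all gene starts), and only *Pdgfrb* was E (50.6%). In primary B cells 6 genes were M (29.1% of all gene starts), with *Prrx1* and *Osr1* in L (12.9% of all gene starts) and *Pdgfrb* alone in E (58.0%). In the MEF map 4 genes were E (*Twist2*, *Prrx1*, *Pdgfra* and *Pdgfrb*), against 58.6% of all gene starts, and 5 were M (29.6%). None was L, where 11.9% of all gene starts were, a share that amounts to about 1 gene of 9.

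**Figure D1:**
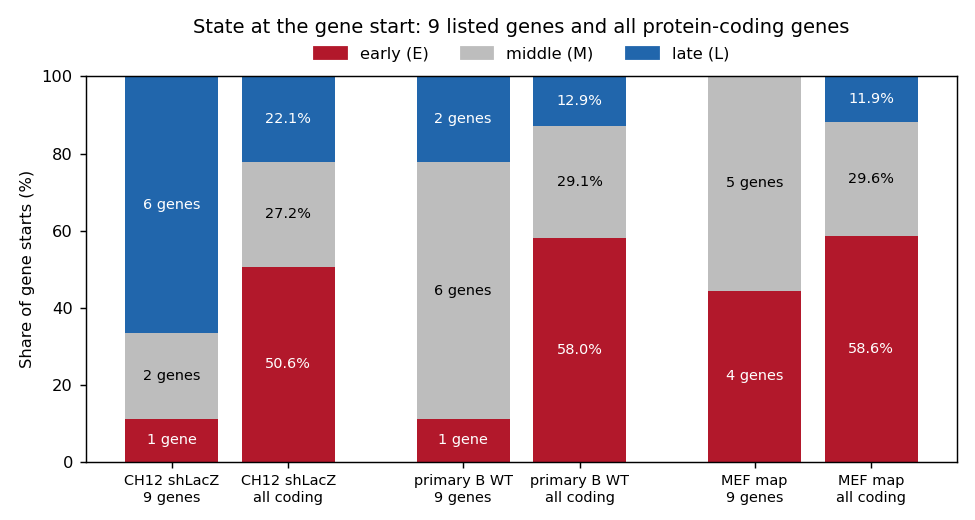
Share of gene starts (vertical axis, percent) in the E, M and L state in each of 3 maps, with the 9 listed genes on the left of each pair and all 22350 protein-coding genes on the right. The L segment holds 6 of the 9 genes in CH12 shLacZ, 2 in primary B WT and none in the MEF map.

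Setting the maps side by side, 8 of 9 genes were in an earlier state in the MEF map than in CH12, all but *Pdgfrb*, and 0 were in a later one. Over all protein-coding genes 23.1% were earlier and 6.81% later. The 6 genes that were L in CH12 could not be later in any map. The 0 therefore rests on *Twist2*, *Pdgfra* and *Pdgfrb* alone. Gene starts cluster in shared domains, and when each trio of covering domains was counted once (4266 trios), 42.4% were earlier. Among the 4950 genes that were L in CH12, 53.5% were earlier in the MEF map, and all 6 listed L genes were. Among the 6088 that were M in CH12, 41.2% were earlier in the MEF map, as were *Twist2* and *Pdgfra*, and 33.2% were earlier in primary B cells, as neither of these was. Against primary B cells 4 of 9 genes were earlier in the MEF map (*Twist2*, *Prrx1*, *Osr1* and *Pdgfra*; 13.2% of all genes) and 0 were later (11.8%). Among genes that were M in primary B cells, 29.4% were earlier in the MEF map, and 2 of the 6 listed M genes were, a share near that of all such genes. Among L genes it was 35.9%, and both *Prrx1* and *Osr1* were. Neither of these could be later in the MEF map. Between the B cell maps 4 of 9 genes were earlier in primary B cells (*Twist1*, *Snai2*, *Tbx15* and *Tbx5*; 18.8% of all genes) and 0 were later (2.75%). These 4 were all L in CH12, where 4 of 6 listed L genes compare with 43.8% of all L genes. Here too the 6 L genes could not be later. The comparisons share maps with each other and are not independent. With a start moved 100 kb to the right, the last of these counts was 1, since *Snai2* and *Tbx15* then read L in primary B cells and *Tbx5* read M in CH12.

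The 9 genes took 5 patterns of state. Written in the order CH12, primary B and MEF, *Twist1*, *Snai2*, *Tbx15* and *Tbx5* were L, M, M, a pattern of 5.62% of all protein-coding genes. *Twist2* and *Pdgfra* were M, M, E (5.71%), *Osr1* was L, L, M (3.88%), and *Pdgfrb* was E, E, E (43.9%). *Prrx1* was L, L, E, a pattern found at 97 gene starts, or 0.434%.

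**Figure D2:**
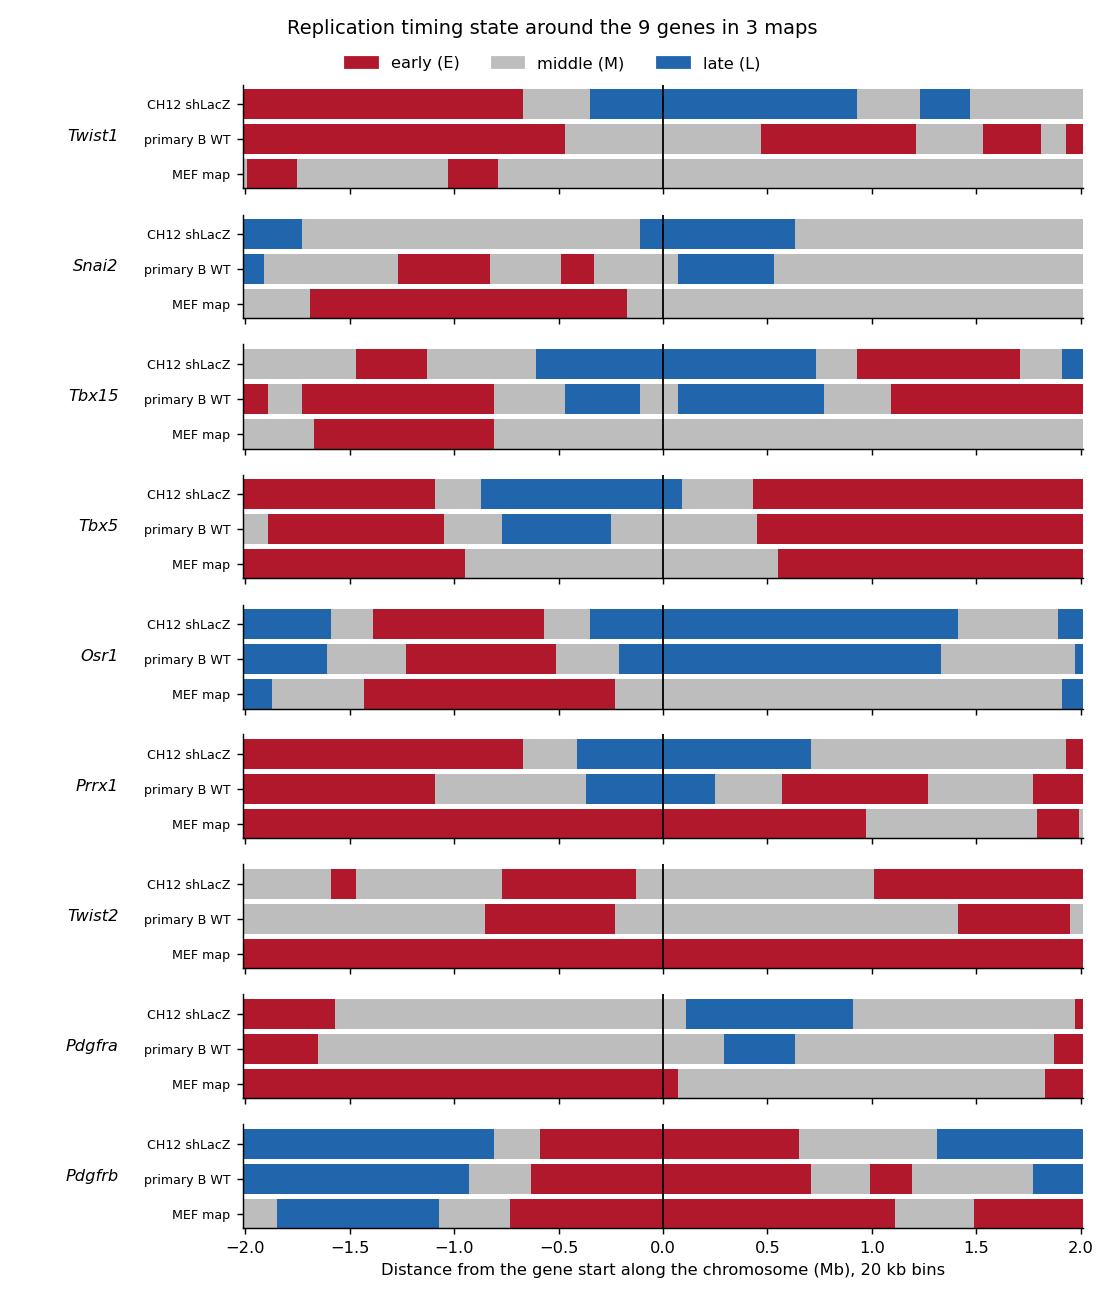
RT state of each 20 kb bin within 2 Mb of the start of the 9 genes (horizontal axis, distance in Mb along the chromosome; black line, gene start), with 1 row per map and E in red, M in grey, L in blue. The starts of 6 genes sit in blue in the CH12 row and those of 2 genes in the primary B row, while the MEF row has no blue within 1 Mb of any start.

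*Twist1* and *Twist2* encode closely related basic helix-loop-helix factors. *Twist1* (mm9 chromosome 12, 34642536 to 34644682, plus strand) lay in a CH12 L domain of 1280 kb, 343 kb from its nearest edge. In primary B cells the covering domain was M, 940 kb long and flanked by E on both sides, with the start 463 kb from an edge. In the MEF map it was M and 3220 kb long, with the start 783 kb from an edge. The state at *Twist1* was therefore the same in primary B cells and the MEF map, while its surroundings were not. Of the 101 bins within 1 Mb on each side, 17 were E in CH12, 54 in primary B cells and 11 in the MEF map. The nearest E domain was 663 kb away in CH12, 463 kb in primary B cells and 783 kb in the MEF map, so by both measures *Twist1* was closest to early chromatin in primary B cells. *Ferd3l*, a helix-loop-helix gene 29 kb away, shared the *Twist1* domain in all 3 maps. *Hdac9*, which encodes a class IIa histone deacetylase and starts 571 kb away, was L in CH12, E in primary B cells and M in the MEF map.

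*Twist2* (chromosome 1, 93698038 to 93744605, plus strand) lay in an M domain in both B cell maps, of 1140 kb in CH12 and 1640 kb in primary B cells, 138 and 238 kb from the nearest edge. In the MEF map it lay in an E domain of 4100 kb, the longest domain that covered any of the 9 genes, 2018 kb from the nearest edge. All 101 bins around *Twist2* were E in the MEF map, while CH12 had 32 and primary B cells 31. *Hdac4*, also a class IIa histone deacetylase gene, starts 130 kb away and shared the *Twist2* domain in all 3 maps, whereas *Asb1*, 261 kb away on the other side, was E in all 3.

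The sequences just upstream of both genes are shown to set the paralogs side by side, with *Prrx1* and *Pdgfra*, the other genes of the list with an entry in the promoter table used (4 of 9; *Snai2*, *Tbx15*, *Tbx5*, *Osr1* and *Pdgfrb* had none). Each run is 150 bases, 5′ to 3′ on the strand of the gene, cut from a 300-base RefSeq (GRCm38.p6) entry. Each 300-base entry matched NCBIM37 (mm9) exactly in 1 place on its chromosome. The runs end at the base before the RefSeq or GENCODE start, whichever lies farther upstream, and capitals mark CpG dinucleotides. The mm9 positions are chr12:34642386-34642535 for *Twist1* and chr1:93697888-93698037 for *Twist2*, both on the plus strand. Those of the other runs are chr1:165243842-165243991 on the minus strand for *Prrx1* and chr5:75548126-75548275 on the plus strand for *Pdgfra*.
Twist1: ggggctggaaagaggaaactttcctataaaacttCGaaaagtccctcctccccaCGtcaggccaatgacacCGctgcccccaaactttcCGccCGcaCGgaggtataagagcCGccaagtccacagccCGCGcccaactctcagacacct
Twist2: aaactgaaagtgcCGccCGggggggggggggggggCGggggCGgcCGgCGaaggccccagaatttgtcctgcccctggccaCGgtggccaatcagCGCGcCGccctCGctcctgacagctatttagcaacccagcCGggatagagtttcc
Prrx1: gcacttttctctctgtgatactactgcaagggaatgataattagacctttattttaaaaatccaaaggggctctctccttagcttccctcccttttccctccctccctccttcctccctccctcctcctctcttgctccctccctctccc
Pdgfra: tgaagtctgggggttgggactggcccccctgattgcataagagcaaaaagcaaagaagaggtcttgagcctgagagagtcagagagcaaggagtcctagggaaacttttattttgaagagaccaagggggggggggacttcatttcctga

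The printed runs hold 9 CpG for *Twist1*, 12 for *Twist2* and 0 for *Prrx1* and *Pdgfra*. Over the full 300 bases of the table, from 250 before to 50 after the RefSeq start, *Twist1* had 27 CpG and *Twist2* 25, with *Prrx1* at 6 and *Pdgfra* at 5. The median over all 32851 promoters of the table was 7. CpG observed over expected was 0.827 for *Twist1*, 0.803 for *Twist2*, 0.36 for *Prrx1* and 0.256 for *Pdgfra*, and the median of the table was 0.384. CpG-rich *Twist2* and CpG-poor *Pdgfra* had the same states in all 3 maps, and CpG-rich *Twist1* had other states than *Twist2*. A link between CpG content and state was not tested. The letters CAGGTG, an E-box bound by Snail factors, were searched on both strands and found in 0 of the 4 member promoters, and in 20.2% of the table.

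*Prrx1*, a paired-related homeobox gene that marks limb and craniofacial mesenchyme, had the widest contrast of the list. It lies on chromosome 1 (165175247 to 165243841, minus strand). In CH12 its start was in an L domain of 1120 kb, 404 kb from the nearest edge, and in primary B cells in one of 620 kb, 256 kb from it. In the MEF map it was inside an E domain of 3640 kb, 976 kb from the nearest edge. The 5 bins of the gene body were all L in both B cell maps and all E in the MEF map. Within 1 Mb on each side, 56 of 101 bins were L in CH12 and 31 in primary B cells, while 99 were E in the MEF map. Its neighbours *Gorab*, 90 kb away, and 4921528O07Rik, 228 kb away, shared its domain in all 3 maps. Both lie within the 300 kb span over which the authors smoothed RT, so the states cannot single out *Prrx1* within its region.

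*Snai2* and *Osr1* encode zinc finger factors. *Snai2* (chromosome 16, 14705945 to 14709488, plus strand) was near domain edges in each map. It lay 106 kb inside a CH12 L domain of 740 kb, 74 kb inside a primary B M domain of 400 kb, and 166 kb inside a MEF M domain of 2280 kb. All 3 distances are below 300 kb, the span over which the authors smoothed RT, although the sources do not state that span for the MEF map. The state at *Snai2* is therefore less certain than at genes deeper in a domain. Its nearest E domain was 2094 kb away in CH12, 326 kb in primary B cells and 166 kb in the MEF map. *Efcab1*, 201 kb to the right, was L in both B cell maps and M in the MEF map.

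*Osr1* (chromosome 12, 9581248 to 9588305, plus strand), needed for heart and kidney formation, lay in L in both B cell maps, with a covering domain of 1760 kb for CH12 and 1540 kb for primary B cells. In the MEF map the covering domain was M and 2140 kb long. The left edge was 341 kb from the start in CH12, 201 kb in primary B cells and 221 kb in the MEF map. The right edge was 1419, 1339 and 1919 kb away in the same order, so the domain reached farther to the right in the MEF map. L bins within 1 Mb numbered 68, 61 and 0 of 101 in the same order.

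*Tbx15* and *Tbx5* are T-box genes with roles in skeletal and in heart and forelimb development. *Tbx15* (chromosome 3, 99044304 to 99158182, plus strand) was 604 kb inside a CH12 L domain of 1340 kb. In primary B cells it lay in an M domain of only 180 kb, 76 kb from its nearest edge and with L on both sides. At the end of the gene the primary B state was L, and 4 of the 6 bins of the gene body were M. In the MEF map *Tbx15* lay in an M domain of 3540 kb, 804 kb from an edge. The M state in primary B cells was thus an island shorter than the smoothing span, and that in the MEF map a long stretch.

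*Tbx5* (chromosome 5, 120284672 to 120335227, plus strand) lay 95 kb inside a CH12 L domain of 960 kb. In primary B cells it lay in an M domain of 700 kb, 245 kb from an edge, and in the MEF map in an M domain of 1500 kb, 555 kb from an edge. E bins within 1 Mb were nearly as many in the 3 maps, with 29 in CH12, 28 in primary B cells and 26 in the MEF map. The L bins were 48, 26 and 0. *Tbx3*, the T-box gene 164 kb away, shared the *Tbx5* domain in all 3 maps, and *Rbm19*, 282 kb away on the other side, was M in all 3.

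*Pdgfra* and *Pdgfrb* encode the receptor tyrosine kinases for platelet-derived growth factors, and their domains differed in all maps but the MEF map, where both were E. *Pdgfra* (chromosome 5, 75548316 to 75594229, plus strand) lay in M domains of 1680 kb in CH12 and 1940 kb in primary B cells, 112 and 292 kb from the right edge, beyond which was L. In the MEF map it lay in an E domain of 2700 kb, 72 kb from the right edge, beyond which was M. Within 1 Mb on each side, 0 of 101 bins were E in either B cell map and 54 in the MEF map. With the start moved 100 kb to the right, *Pdgfra* read M in the MEF map. *Gsx2*, 77 kb to the left, shared its domain in all 3 maps. The related receptor genes *Kit* and *Kdr*, 423 and 826 kb to the right, lay in other domains. *Kit* was L, L, M and *Kdr* was L, M, M in CH12, primary B and MEF.

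*Pdgfrb* (chromosome 18, 61204804 to 61244715, plus strand) was the only listed gene in E in all 3 maps. Its E domain was 1240 kb long in CH12, 1340 kb in primary B cells and 1840 kb in the MEF map, with the start 585, 625 and 725 kb from the nearest edge. *Cdx1*, 9 kb away, and *Csf1r*, the macrophage growth factor receptor gene 60 kb away, shared that domain in each map. E bins within 1 Mb numbered 62 in CH12, 68 in primary B cells and 87 in the MEF map, of 101.

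**Figure D3:**
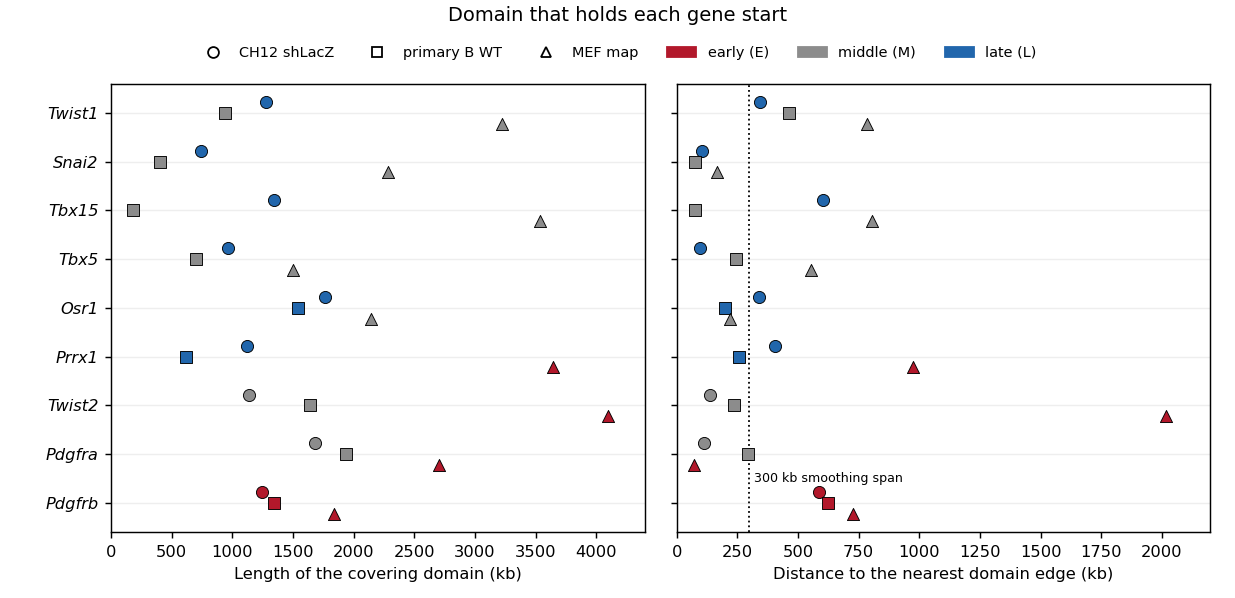
Length in kb of the domain that covers each gene start (left) and distance in kb from the start to the nearest domain edge (right), with 1 symbol per map and colour for the state. The triangles of the MEF map lie farthest to the right in the length panel for all 9 genes, from 1500 to 4100 kb, while 7 genes lie within the 300 kb smoothing span of an edge in primary B cells.

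The covering domain was longest in the MEF map for all 9 genes, where 50.8% of all protein-coding genes had it so. For the 5 genes that were M there, the share over all M genes was 44.8%, and for the 4 that were E it was 58.5%. The median covering domain of the 9 genes was 2700 kb in the MEF map (all genes 2040 kb), 1240 kb in CH12 (all genes 1520 kb) and 940 kb in primary B cells (all genes 1480 kb). These medians mix states, and length differed by state. In CH12 the 2 M genes had a median of 1410 kb (all M genes 660 kb). In primary B cells the 6 M genes had 820 kb (all M genes 740 kb) and the 2 L genes 1080 kb (all L genes 1960 kb). *Pdgfrb*, the only E gene in both, was below the E medians of 2200 kb in CH12 and 2100 kb in primary B cells. In the MEF map M genes had 2280 kb (all M genes 1180 kb) and E genes 3170 kb (all E genes 2660 kb). The 6 CH12 L domains were short for L, with a median of 1200 kb against 2300 kb over all genes that were L. Their starts were also nearer to early chromatin, with a median of 663 kb to the nearest E domain, where all L genes had 1650 kb; *Snai2* at 2094 kb was the exception. A nearest edge within 300 kb was found for 4 of 9 genes in CH12 (49.5% of all genes), 7 in primary B cells (48.6%) and 3 in the MEF map (39.8%). These counts also mix states. In primary B cells the median distance to an edge was 241 kb for the 6 M genes (all M genes 174 kb). It was 229 kb for the 2 L genes (all L genes 335 kb), and *Pdgfrb* had 625 kb (all E genes 437 kb).

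In the MEF map L bins were absent within 1 Mb of all 9 gene starts, while 2.82% of bins within 2 Mb were L. Of the 909 bins within 1 Mb on each side of the starts, 390 were L in CH12 (42.9%), 215 in primary B cells (23.7%) and 0 in the MEF map. Around all protein-coding genes the shares of L were 28.9%, 18.6% and 15.1%. Counted by gene, 9 of 9 had no L bin within 1 Mb in the MEF map, against 60.5% of all genes. Among genes that were M in that map these were 5 of 5, against 42.7%, and among E genes 4 of 4, against 81.7%. In CH12 only *Twist2* had no L bin so near (35.7% of all genes), and in primary B cells *Twist1* and *Twist2* (48.5%). *Pdgfrb*, E in all maps, had 10 L bins within 1 Mb in CH12 and 4 in primary B cells, where 60.6% and 69.8% of all E genes had none. The E share of the 909 bins was 20.1% in CH12, 28.1% in primary B cells and 51.6% in the MEF map, and 43.8%, 50.0% and 51.8% around all genes.

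Sequence and gene content around the starts were taken from the mm9 reference and its annotation, not from the cells of each map. GC content within 1 Mb ranged from 40.6% at *Twist1* to 48.8% at *Tbx5*, with a median of 41.8% against 43.9% over all genes. The 6 genes that were L in CH12 had a median of 41.4%, near the 40.4% of all L genes. *Tbx5* stood apart among them, since 48.8% was above the median of all CH12 E genes, 46.0%. The 9 genes had between 7 (*Twist1*) and 31 (*Pdgfrb*) other protein-coding gene starts within 1 Mb, with a median of 18 against 29 over all genes. By CH12 state the counts were nearer: the 6 L genes had a median of 17 (all L genes 16) and the 2 M genes 19.5 (all M genes 20). *Pdgfrb*, the E gene, had 31 (all E genes 39). Their lengths ran from 2.15 kb for *Twist1* to 114 kb for *Tbx15*.

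Relatives of the listed genes did not always share their states. *Snai1*, *Prrx2*, *Tbx2* and *Tbx4* started in E in all 3 maps, unlike *Snai2*, *Prrx1*, *Tbx5* and *Tbx15*. *Osr2* was M, M, E where *Osr1* was L, L, M. *Tbx18*, like *Osr1*, was L, L, M. Over a list of 30 other mesenchymal transcription factor genes, 11 were L in CH12 (22.1% of all genes) and 5 in primary B cells (12.9%). The primary B share was near that of all genes. In the MEF map 1 was L (*Alx1*; 11.9% of all genes). An earlier state in the MEF map than in CH12 was read at 16 of the 30 (23.1% of all genes) and a later one at 3 (*Zeb2*, *Foxc1* and *Runx2*; 6.81%). Against primary B cells 9 were earlier (13.2%) and 1, *Zeb2*, later (11.8%). *Gli2*, a Hedgehog effector gene, was L, L, E as *Prrx1* was, and *Tead1*, a Hippo pathway factor gene, was L, M, E. *Tbx3*, *Tcf21*, *Msx1*, *Hand2* and *Sox9* had the L, M, M pattern of *Twist1*. *Tbx3* shares the *Tbx5* domain in all 3 maps, so it is not a region apart from the listed genes.

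Among signalling genes, the 4 PDGF ligand genes differed from each other. *Pdgfb* was E in all maps, *Pdgfd* L in all maps, *Pdgfa* E, M, E and *Pdgfc* L, M, M. Of 6 class III and related receptor kinase genes, 4 were earlier in the MEF map than in CH12 (23.1% of all genes) and 0 later (6.81%). The 4 were *Kit*, *Kdr*, *Flt1* and *Flt4*, while *Csf1r* and *Flt3* were E in all maps. Of 18 other growth factor receptor genes, 15 were E in the MEF map (58.6% of all genes), 8 in CH12 (50.6%) and 7 in primary B cells (58.0%). Of these 18, 10 were earlier in the MEF map than in CH12 (23.1% of all genes) and 0 later (6.81%). Among the 10 were *Fgfr1*, *Fgfr2*, *Igf1r*, *Met* and *Ddr2*, which were M, M, E like *Pdgfra* and *Twist2*. Genes of either receptor list that were L in CH12 could not be later. Among these further lists the fibroblast matrix genes had the largest such share, 12 of 15 earlier in the MEF map than in CH12 (23.1% of all genes). *Col3a1*, *Col5a2* and *Postn* were L, L, E. Genes close together were counted separately in each list, as were *Col3a1* and *Col5a2* on chromosome 1. Of the 12 B cell identity genes, 2 were earlier in the MEF map than in CH12 (23.1% of all genes) and 3 later (6.81%). Against primary B cells 4 were later (*Ms4a1*, *Pax5*, *Blnk* and *Fcer2a*; 11.8% of all genes). None could be earlier there, since all 12 were E in primary B cells.

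**Figure D4:**
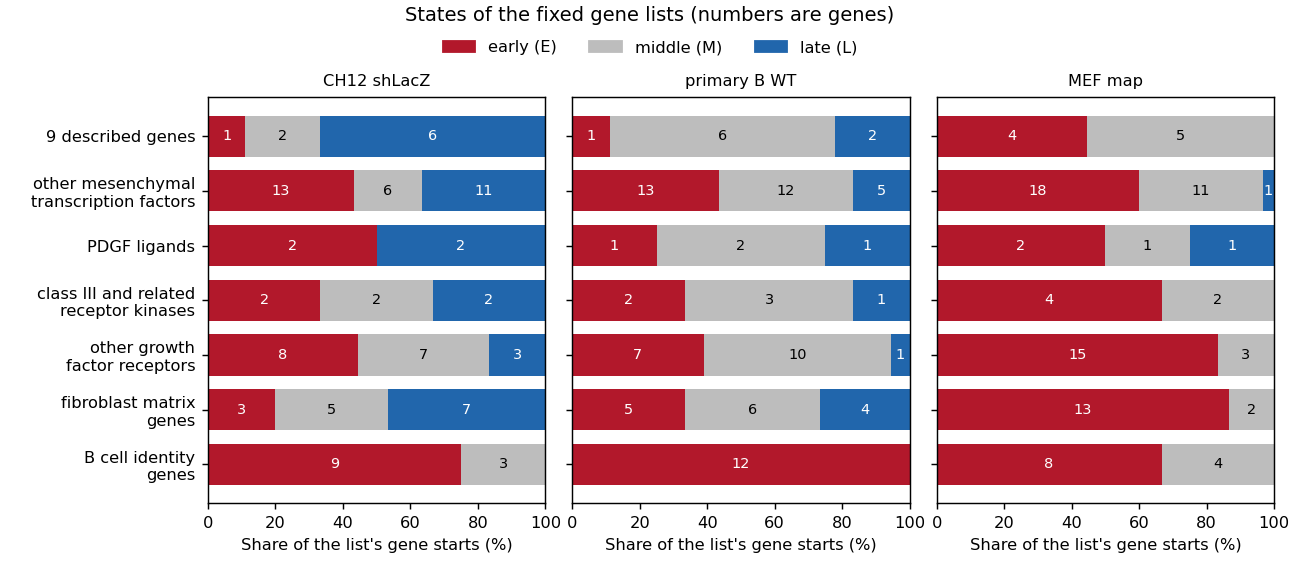
Share of gene starts in E, M and L (horizontal axis, percent) for the 9 described genes and 6 further lists in each map, with the number of genes printed in each segment. The L segment of the 9 genes falls from 6 in CH12 shLacZ to 2 in primary B WT and none in the MEF map, and the 12 B cell identity genes are all E in primary B WT.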

How the data were processed

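The deposited files hold the start, end and state number of each RT domain, and no RT value. Per the methods and the submitters' processing notes, the authors trimmed reads with Trim Galore 0.6.5, aligned them to mm9 with BWA 0.7.17 and kept unique alignments with SAMtools 1.9. They merged replicates, removed duplicates, took log2 early over late ratios in 20 kb windows, smoothed them over 300 kb by loess, and called 3 states with a hidden Markov model. Merging removes replicate error and smoothing blurs edges. How the reads of the MEF map were made, and whether it was smoothed over the same span, is not given in the sources used here.

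State numbers are not named in the files. Numbers 2, 1 and 0 were read as E, M and L in the B cell maps and 0, 2 and 1 in the MEF map, in which E and L domains touched in 0 places. Protein-coding gene starts per Mb in E, M and L were 18.9, 8.41 and 3.76 in the CH12 map, 17.6, 7.77 and 2.88 in that of primary B cells, and 16.1, 6.48 and 3.29 in the MEF map; this check uses the same gene starts as the shares given. All 20 chromosomes of each map ended at the NCBIM37 reference length.

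Genes were placed by the start of the GENCODE M1 record on its own strand. A covering domain is the one that holds that base, and a window is the 101 bins centred on it. No test was run, since there is 1 map per condition, and counts stand beside the percent over all 22350 protein-coding genes. Named were the 9 genes, their nearest coding neighbours on each side, *Kit*, *Kdr* and *Csf1r*, list members by their states, and for each gene the gene most alike over its window and more than 5 Mb away. Members and lists were chosen with earlier results of these data known. One listed symbol was matched through an older name. Protein identity of paralogs was planned and not computed. Functions were tested on simulated maps, and 4 of 4 checks recovered all planted values. Python 3.11.15, numpy 2.4.6, pandas 2.3.3 and matplotlib 3.10.9 were used.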

Additional observations from a re-analysis of the deposited data

How the results depend on the processing

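Each state at a gene start was read again under 7 alternatives: the midpoint or end of the gene, most bins of its body, joining domains under 100 kb to a neighbour, a start moved 100 kb left or right, and the farthest-downstream coding transcript. Of 189 readings 5 changed, in *Tbx15*, *Snai2*, *Tbx5* and *Pdgfra*, 4 of them with the start moved to the right. That move raised the genes late in primary B cells from 2 to 4 and lowered those earlier in primary B cells than in CH12 from 4 to 1, while those earlier in the MEF map than in CH12 went from 8 to 6. The E share around the genes was 13.8% in CH12, 11.6% in primary B cells and 42.7% in the MEF map within 250 kb, and 29.5%, 37.0% and 50.9% within 2 Mb. The order with the MEF map highest held in each window, while that of the B cell maps turned within 250 kb. The L share in the MEF map was 0% within 250 kb and 2.82% within 2 Mb. With 1 gene per trio of domains, 25.0% of genes were earlier in the MEF map than in primary B cells and 34.5% earlier in primary B cells than in CH12. The domain of all 9 genes stayed longest in the MEF map under 2 alternatives chosen after seeing the data (joined short domains, end of the gene). No paired analysis was possible because each condition has a single map of pooled replicates. Read depth is unknown from the maps.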

Other observations

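For each of the 9 genes, the protein-coding gene whose surroundings were most alike was sought, by the share of the 303 bins within 1 Mb of the start (101 in each of 3 maps, read along each gene's strand) that had the same state, leaving out genes within 5 Mb on the same chromosome. This is a description of the maps, with neighbouring bins that are not independent. Each match is the best of at least 21919 genes, so it lies above the median by the way it was picked. The closest match was that of *Pdgfrb*, *Bola3* on chromosome 6, with 96.4% of bins alike. The median over all genes compared was 46.5% for *Pdgfrb* and lower for the other 8 genes, down to 26.7% for *Tbx15*. *Twist2* was matched by *Spata18* on chromosome 5 (91.4%) and *Pdgfra* by *Oxgr1* on chromosome 14 (89.4%). *Osr1* was matched by the innate immune receptor gene *Tlr3* on chromosome 8 (88.8%). *Tbx15* was matched by the lens crystallin gene *Crygf* on chromosome 1 (86.8%), *Tbx5* by *Gm6816* on chromosome 7 (86.5%) and *Twist1* by 4932442E05Rik on chromosome 10 (85.5%). The least close matches were *Gm5848* on chromosome 3 for *Snai2* (80.2%) and the chloride channel accessory gene *Clca5* on chromosome 3 for *Prrx1* (79.5%), which shared the L, L, E states of *Prrx1*. The states at the start itself differed in 1 map for 3 of these pairs: *Tlr3* was M in primary B cells where *Osr1* was L, *Crygf* was L there where *Tbx15* was M, and *Oxgr1* was L in CH12 where *Pdgfra* was M.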
